A study of Mus musculus with 11 samples.

Results

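Livers of 4 mice taken 3 weeks after injection of c-MET and ΔN90-β-catenin were compared with livers of 3 vector control mice, which are 7 of the 11 libraries of the series, with 1 library per mouse. The remaining 4 libraries came from livers taken 2 weeks after the same injection. All were male mice described as GS WT (GS is the study's short name for glutamine synthetase) and were 7 weeks old when injected. The oncogene mice received human c-MET and β-catenin lacking its N-terminus, each on a Sleeping Beauty transposon plasmid with the EF1α promoter, together with the SB10 transposase plasmid, by hydrodynamic tail vein injection. The controls received the vehicle by the series description and the vector by its title, and their library names give 0 weeks. The mice had a mixed 129/Ola and C57BL/6 background by the text on this model, and C57/Bl3 by the general methods. EF1α is active in many cell types, hydrodynamic delivery reaches only some hepatocytes, and every value is an average over the whole liver. Fewer cells of a type and less RNA per cell therefore cannot be told apart.

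β-catenin is the transcriptional arm of the Wnt pathway. When it escapes degradation it binds TCF and LEF proteins at target genes, several of which (Axin2, Nkd1, Rnf43) encode brakes on the same pathway. In the normal liver this activity is highest around the central vein, where glutamine synthetase is made, and low around the portal vein, where urea is made. c-MET is the receptor for hepatocyte growth factor and signals through ERK.

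Although hepatocytes are the labelled cell type, the study describes bulk liver. The 10 hepatocyte markers were all present, led by Alb (albumin), and the sum of their levels was 86567, 76895 and 81288 RPKM in the vector control livers and 65109, 62120.1, 68323 and 70435 RPKM at 3 weeks. The 3-week livers were all below the vector control livers, and Alb and Apoa1 made up 93.2% of the difference between the group means. Alb did not pass (log2 change −0.35 ± 0.13 (SE), limma, adjusted p = 0.0995). Of the 10, 0 were higher, 1 lower (10%) and 9 did not pass. For the list the median log2 change was −0.18, and −0.45 with centring, where 0 were higher and 4 lower (40%). Leaving out 1 mouse gave 0 to 2 calls without centring, and 0 to 5 with centring. Over all tested genes 14.9% were higher and 0.708% lower, and 1.32% and 2.91% with centring. Macrophage markers, led by C1qa, were present too and summed to 207, 227 and 217 RPKM in the vector control livers and 251, 331, 242 and 298 RPKM at 3 weeks. Here the 3-week livers were all above the vector control livers. Endothelial markers, led by Clec4g, summed to 104, 113 and 113 RPKM in the vector control livers and 105, 105, 92.5 and 109 RPKM at 3 weeks, and stellate cell and fibroblast markers, led by Dcn, to 182, 171 and 158 RPKM in the vector control livers and 169, 166, 161 and 183 RPKM at 3 weeks. For both the groups overlapped. Of 13 tested endothelial markers 1 was higher (7.69%), 0 lower and 12 did not pass, and with centring 0 were higher and 2 lower. The Y-linked genes Ddx3y and Eif2s3y were present in all 7 livers, the lowest value being 13.8 RPKM.

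Of 11153 genes with a mean of at least 0.5 RPKM over the 7 livers, 1745 (15.6%) differed at 3 weeks (limma on log2 of RPKM + 0.5, adjusted p under 0.05), 1666 higher (14.9%) and 79 lower (0.708%). With each library centred on its median, 471 (4.22%) differed, 147 higher (1.32%) and 324 lower (2.91%). The excess of higher genes turned into an excess of lower genes, and quantile normalization gave 91 higher and 46 lower. The calls shared by both scalings were 147 higher and 79 lower genes. In 31.4% of the tested genes all 4 livers at 3 weeks were above all 3 controls, and in 1.86% all were below.

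The libraries differed in their medians. The median of the log2 values was 2.62, 2.63 and 2.58 in the vector control livers and 2.86, 2.95, 2.84 and 2.87 at 3 weeks, with no overlap (mean difference 0.27, exact permutation test, two-sided p = 0.0571 as the doubled tail, the smallest that 35 assignments allow, and 0.0286 when ranked by absolute difference). The 100 most abundant genes held 54.7, 53.7 and 54.1% of the summed RPKM in the vector control livers and 50, 49.3, 50.2 and 50.2% at 3 weeks. All 3-week livers had the lower share, and the part of this share, of the hepatocyte marker sum or of the macrophage marker sum in the shift was not tested. The median log2 change over all tested genes was 0.21, and −0.06 with centring, and the medians of gene groups are read against these. The count also rested on single mice. It was 258 without control mouse 1, 886 without control mouse 2, 298 without control mouse 3, 982 without 3-week mouse 1 and 535 without 3-week mouse 4, and 192 genes were called in all 7 such fits (185 higher and 7 lower). With centring the count was 49, 67 and 40 without control mouse 1, 2 and 3, and 236 and 75 without 3-week mouse 3 and 4. Of the genes called with centring, 28 kept the call in every such fit. Calls named below are those without centring unless centring is stated. The library names end in digits, other than the mouse numbers used here, whose meaning is not given in the sources used here. These digits fall in separate ranges for the controls and for the 3-week mice. Those of 2-week mice 3 and 4 lie within the 3-week range, and those of 2-week mice 1 and 2 outside both. The median log2 value was 2.66 and 2.65 in 2-week mice 1 and 2, and 2.78 and 2.86 in 2-week mice 3 and 4. The 100 most abundant genes held 54.6 and 54.4% in the former and 51 and 50.7% in the latter. In these 2-week libraries both measures lay nearer to the 3-week livers within that range of digits and nearer to the controls outside it. All 4 mice received the oncogenes. There were only 2 mice on each side, and the cause of this difference was not tested. For 3 weeks against controls, what goes with the range cannot be told apart from the oncogenes.

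**Figure D1:**
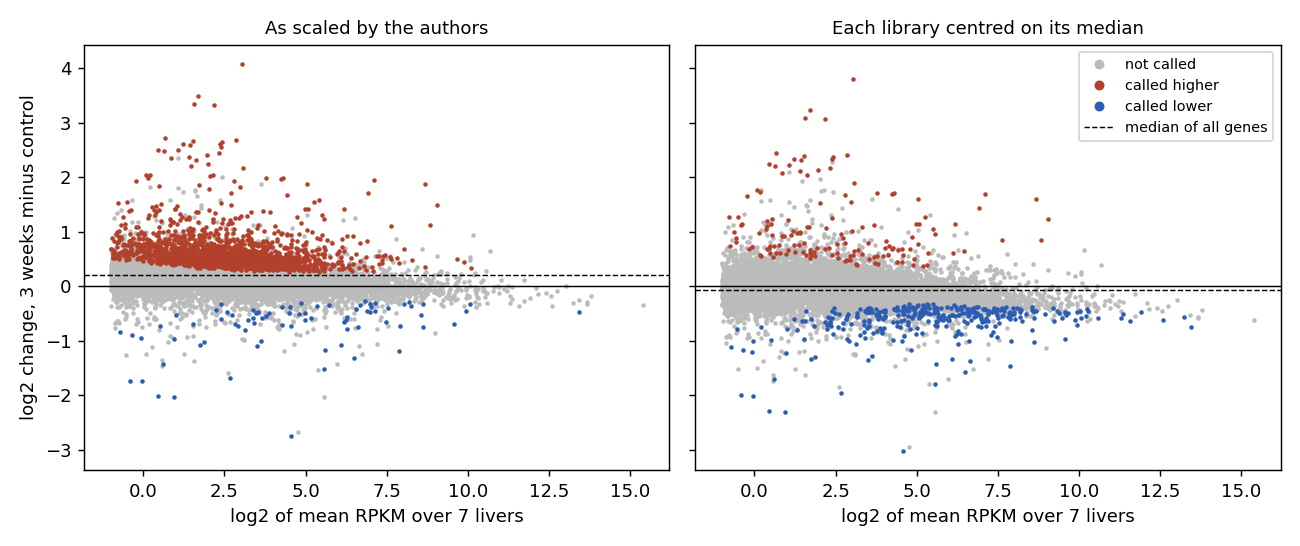
Each point is 1 of the tested genes, with the log2 of its mean RPKM over the 7 livers on the x axis and the log2 change at 3 weeks on the y axis, as scaled by the authors (left) and with each library centred on its median (right). Red points were called higher and blue points lower, and the dashed line, the median of all genes, lies at 0.21 on the left and −0.06 on the right.

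Of 20 listed Wnt target and feedback genes 15 were tested, of which 9 were higher (60%), 0 lower and 6 did not pass. Their median log2 change was 0.80, and 0.53 with centring, where 7 were higher (46.7%) and 0 lower, and 6 to 10 members passed without centring when 1 mouse was left out, the fewest without control mouse 1 or control mouse 3, and 1 to 6 with centring. The shares of all tested genes were 14.9% higher and 0.708% lower, and 1.32% and 2.91% with centring. Nkd1 (chromosome 8, 88521354 to 88594884, mm10), a negative regulator that binds Dishevelled, was 0.952, 0.846 and 1.2 RPKM in the vector control livers and 5.32, 12, 5.51 and 9.35 RPKM at 3 weeks. The groups did not overlap (log2 change 2.44 ± 0.26 (SE), limma, adjusted p = 0.00347, and 2.17 with centring, limma, adjusted p = 0.00596). Tnfrsf19, a receptor of the tumour necrosis factor family, was 0.841, 0.96 and 1.27 RPKM in the vector control livers and 2.46, 3.11, 3.15 and 3.41 RPKM at 3 weeks. Every 3-week liver was above every control (log2 change 1.22 ± 0.15 (SE), limma, adjusted p = 0.00549). Rnf43, a ligase that removes Wnt receptors from the membrane, was 3.42, 3.44 and 3.12 RPKM in the vector control livers and 8.19, 9.61, 5.66 and 11.3 RPKM at 3 weeks, again without overlap (log2 change 1.23 ± 0.20 (SE), limma, adjusted p = 0.0109). Axin2, a scaffold of the β-catenin destruction complex, went from 1.36 ± 0.174 RPKM (SD, n = 3) in controls to 4.37 ± 1.09 RPKM (SD, n = 4) (log2 change 1.36 ± 0.18 (SE), limma, adjusted p = 0.00676). For these 4 genes leaving out any 1 of the 7 mice kept the call without centring. With centring the call held in 7 of the 7 such fits for Nkd1, 4 for Tnfrsf19, 2 for Rnf43 and 4 for Axin2.

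As several of these genes passed, the promoters of the list (250 bases before to 50 after the start, RefSeq, GRCm38.p6) were searched on both strands for CTTTGAT, the letters TCF and LEF proteins are known to bind. Of 17 promoters of 11 matched list genes, 2 held the letters, both of tested genes (7 of the 17 belong to genes that were not tested). Of all 32851 promoters 3.73% held them, and of the 11184 promoters of tested genes 2.49%. The 2 list promoters that held them are that of Sp5, named here after its values were seen, on chromosome 2 from 70474673 to 70474972 (plus strand), and one of the promoters of Tnfrsf19, on chromosome 14 from 61037938 to 61038237 (minus strand). Both are printed 5′ to 3′ with the matching letters, or their reverse complement ATCAAAG, in capitals. A match describes the letters and is not a measured binding site.
Sp5: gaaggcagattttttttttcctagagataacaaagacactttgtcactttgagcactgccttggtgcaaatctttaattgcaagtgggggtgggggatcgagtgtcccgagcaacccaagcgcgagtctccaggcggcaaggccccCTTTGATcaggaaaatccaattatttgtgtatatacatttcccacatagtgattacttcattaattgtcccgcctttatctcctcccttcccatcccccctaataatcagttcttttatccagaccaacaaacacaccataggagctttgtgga
Tnfrsf19: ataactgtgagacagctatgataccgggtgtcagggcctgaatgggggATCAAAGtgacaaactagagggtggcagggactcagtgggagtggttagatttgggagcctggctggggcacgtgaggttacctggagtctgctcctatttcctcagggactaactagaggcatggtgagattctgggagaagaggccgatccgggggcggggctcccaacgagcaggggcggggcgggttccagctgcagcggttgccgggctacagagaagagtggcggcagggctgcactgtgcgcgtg

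Among 19 tested pericentral genes 12 were higher (63.2%), 0 lower and 7 did not pass. Their median log2 change was 0.68, and 0.41 with centring, where 8 were higher (42.1%) and 1 lower (5.26%). The lower one was Cyp27a1. Cyp2e1, the most abundant member, did not pass without centring (log2 change −0.14, limma, adjusted p = 0.374). Both are named here after their values were seen. Between 8 and 12 members passed without centring when 1 mouse was left out, the fewest without control mouse 3, and 3 to 9 with centring. Slc1a4, called with and without centring, had a control mean under the filter and entered the test through its 3-week values. The filter thus favoured these counts. Axin2 and Lgr5 (the latter named after its values were seen) are called in the list of Wnt targets too. Among all genes tested, 14.9% rose and 0.708% fell, and 1.32% and 2.91% did so with centring. Oat (chromosome 7, 132557478 to 132576398, mm10), ornithine aminotransferase, was 149, 164 and 168 RPKM in the vector control livers and 487, 792, 536 and 585 RPKM at 3 weeks. All 3-week values were above all control values (log2 change 1.88 ± 0.15 (SE), limma, adjusted p = 0.00142, and 1.61 with centring, limma, adjusted p = 0.00259). Slc13a3, a carrier of dicarboxylates, was 2.41, 2.31 and 2.12 RPKM in the vector control livers and 7.29, 13.4, 8.75 and 12.4 RPKM at 3 weeks, and Rhbg, an ammonium transporter, went from 4.64 ± 0.263 RPKM (SD, n = 3) in controls to 20.3 ± 5.74 RPKM (SD, n = 4). Neither overlapped between the groups (Slc13a3 log2 change 1.94 ± 0.20 (SE), limma, adjusted p = 0.00323, Rhbg log2 change 1.98 ± 0.18 (SE), limma, adjusted p = 0.00232). Lect2, a secreted protein of hepatocytes, was 124, 122.7 and 107 RPKM in the vector control livers and 207, 255, 240.1 and 335 RPKM at 3 weeks (log2 change 1.12 ± 0.15 (SE), limma, adjusted p = 0.00734). Its groups did not overlap. For these 4 genes leaving out any 1 of the 7 mice kept the call without centring. Centred calls were kept in 7 of the 7 such fits for Oat, 7 for Slc13a3, 7 for Rhbg and 4 for Lect2.

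Of 18 tested periportal genes 3 were higher (16.7%), 0 lower and 15 did not pass. The median log2 change was 0.09, and −0.18 with centring, where 0 were higher and 2 lower (11.1%), and 0 to 2 members passed without centring when 1 mouse was left out, the fewest without control mouse 1, control mouse 3 or 3-week mouse 4, and 0 to 4 with centring. Beside this stand 14.9% higher and 0.708% lower of all tested genes, and 1.32% and 2.91% with centring. In the list of urea cycle and ammonia handling 6 were higher (37.5%), 0 lower and 10 did not pass of 16 tested, the median log2 change was 0.22, and −0.04 with centring, where 4 were higher (25%) and 0 lower. In fits lacking 1 mouse, 4 to 7 members passed without centring, and 2 to 4 with centring. The members of smallest adjusted p were Oat, Rhbg, Slc1a2 and Glul, which take up or fix ammonia and glutamate or use ornithine, and are not enzymes of the cycle. These 4 are all the calls of this list with centring. They are also members of the pericentral list, so the counts of both lists rest in part on the same genes. Cps1, which starts the cycle, was 504, 495 and 549 RPKM in the vector control livers and 569, 489.9, 698 and 699 RPKM at 3 weeks. The groups overlapped (log2 change 0.24 ± 0.13 (SE), limma, adjusted p = 0.229), and the sign turned with centring (−0.03). Otc was 294 ± 27 RPKM (SD, n = 3) in controls and 262 ± 20.1 RPKM (SD, n = 4) at 3 weeks, and Asl was 367 ± 20.3 RPKM and 437 ± 66.5 RPKM. Neither passed (limma, adjusted p = 0.248 and 0.198), and for Asl the log2 change was 0.24 but −0.03 with centring. For Otc it was −0.16, and −0.43 with centring (limma, adjusted p = 0.0672). Ass1, a further enzyme of the cycle and known as abundant in liver, was listed at 0.028 to 0.205 RPKM in the 7 livers, under the filter, so its level in this table was not read as a level in tissue.

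Carriers of amino acids included Slc1a2, Slc1a4 and Slc1a5 among the rises. Of 19 tested, 5 were higher (26.3%), 0 lower and 14 did not pass, the median log2 change was 0.30, and 0.03 with centring, where 3 were higher (15.8%) and 0 lower, and 3 to 6 members passed without centring when 1 mouse was left out, the fewest without control mouse 3 or 3-week mouse 4, and 0 to 4 with centring. Over all tested genes 14.9% were higher and 0.708% lower, and 1.32% and 2.91% with centring. Slc1a2, a glutamate carrier, was 14.2, 11.5 and 10.9 RPKM in the vector control livers and 30.9, 73, 40.5 and 48.3 RPKM at 3 weeks. The lowest 3-week liver was above the highest control (log2 change 1.88 ± 0.25 (SE), limma, adjusted p = 0.00676). Slc1a4 and Slc1a5, carriers of neutral amino acids, went from 0.454 ± 0.0342 RPKM and 0.388 ± 0.193 RPKM (SD, n = 3) in controls to 1.92 ± 0.61 RPKM and 1.99 ± 0.608 RPKM (SD, n = 4). Neither overlapped (Slc1a4 log2 change 1.31 ± 0.19 (SE), limma, adjusted p = 0.00916, Slc1a5 log2 change 1.47 ± 0.24 (SE), limma, adjusted p = 0.011). Both control means lay under the filter, so Slc1a4 and Slc1a5 entered the test through their 3-week values. The filter thus favoured the count of this list. Slc1a2 and Slc1a4 are counted in the pericentral list too.

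**Figure D2:**
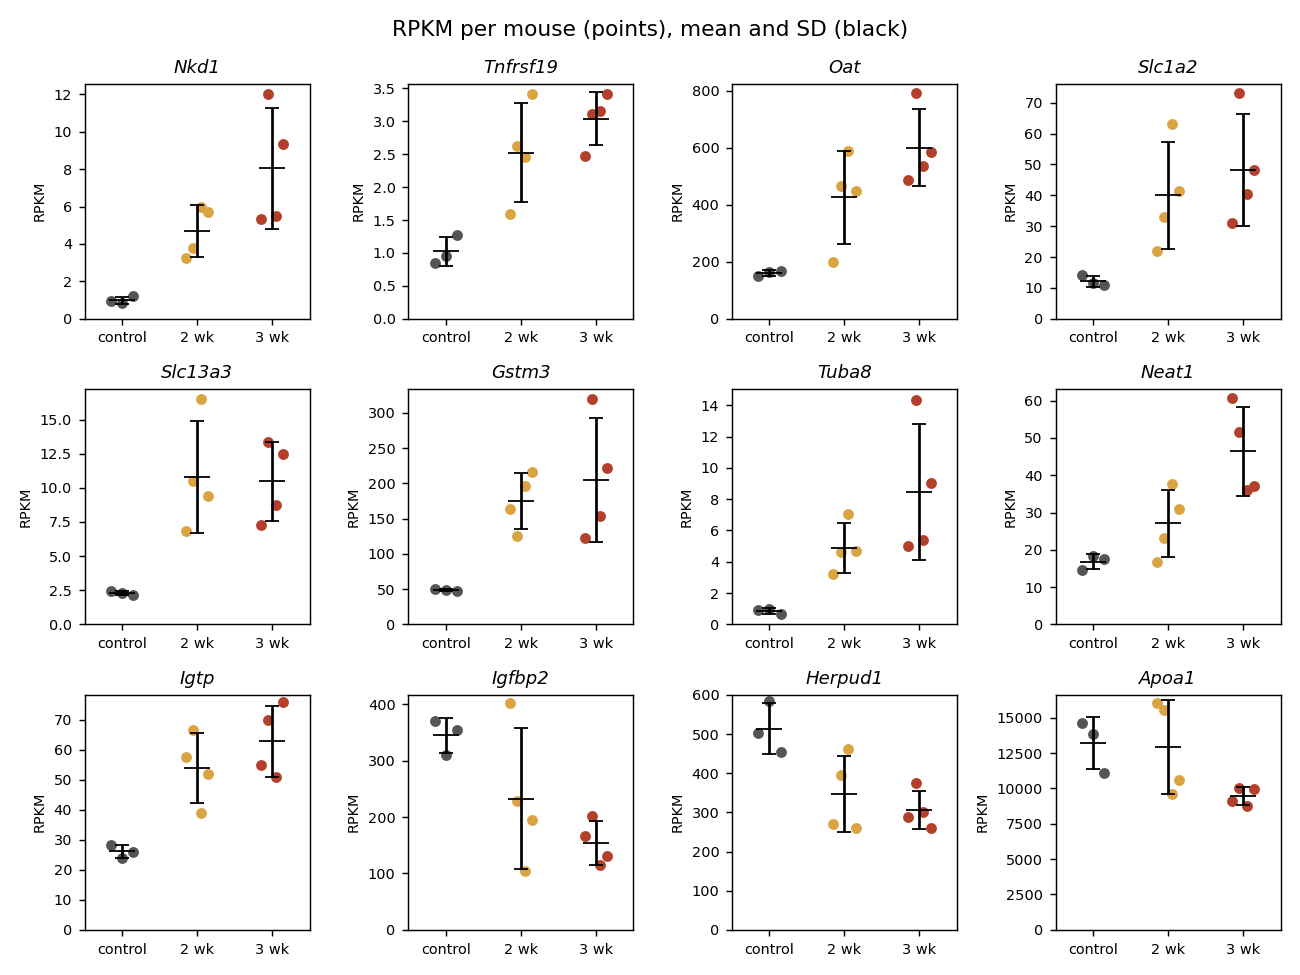
Each panel gives 1 gene in RPKM on the y axis, with a point per mouse for the vector control, 2-week and 3-week livers on the x axis, and the black line and bars are the mean and SD. Oat lies at 487 RPKM or more in the 4 livers at 3 weeks and at 168 RPKM or less in the 3 controls, and Igfbp2 at 202 RPKM or less at 3 weeks and 309 RPKM or more in controls.

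Among genes known from fetal liver and liver tumours, 4 were higher (25%), 0 lower and 12 did not pass of 16 tested (the median log2 change was 0.47, and 0.20 with centring, where 2 were higher (12.5%) and 0 lower), and 2 to 5 members passed without centring when 1 mouse was left out, the fewest without control mouse 1, and 0 to 3 with centring. The shares of all tested genes were 14.9% higher and 0.708% lower, and 1.32% and 2.91% with centring. The called members of this list were Afp, Akr1c18, Abcc4 and Scd2. The control means of Afp, Akr1c18 and Abcc4 lay under the filter, so these entered the test through their 3-week values. Outside this list, Meg3, a noncoding RNA of the imprinted Dlk1-Dio3 region, was 0.161, 0.039 and 0.032 RPKM in the vector control livers and 1.32, 3.19, 1.21 and 1.88 RPKM at 3 weeks. The groups did not overlap (log2 change 1.99 ± 0.26 (SE), limma, adjusted p = 0.00676). Of 7 listed names of that region 4 were under the filter. The 2 tested, Meg3 and Rian, were called higher. They entered the test through their 3-week values, with means of 0.0773 and 0.192 RPKM in controls, so the filter favoured this count. Further large rises came from genes outside the lists. Tuba8, an α-tubulin, was 0.914, 0.997 and 0.654 RPKM in the vector control livers and 5.03, 14.3, 5.42 and 9.02 RPKM at 3 weeks. Pnliprp1, a relative of pancreatic lipase, was 0, 0.031 and 0 RPKM in the vector control livers and 1.5, 5.06, 1.15 and 3.09 RPKM at 3 weeks. Mogat2, which makes diacylglycerol, was 0.025, 0.086 and 0 RPKM in the vector control livers and 1.13, 3.09, 1.28 and 1.79 RPKM at 3 weeks. For all of these the 3-week livers were above the controls (Tuba8 log2 change 2.61 ± 0.31 (SE), limma, adjusted p = 0.00549, Pnliprp1 log2 change 2.48 ± 0.37 (SE), limma, adjusted p = 0.00943, Mogat2 log2 change 2.04 ± 0.26 (SE), limma, adjusted p = 0.00622), and leaving out any 1 of the 7 mice kept the calls without centring. In centred data the call stood in 6 of the 7 such fits for Tuba8, 3 for Pnliprp1 and 5 for Mogat2. Pnliprp1 and Mogat2 had control means of 0.0103 and 0.037 RPKM. They entered the test through their 3-week values, so the filter favoured their calls. Of 7 markers of acinar pancreas and other organs, 5 were listed at 0 in all 7 livers, Pnlip and Cpa1 among them. The list, led by Cela1, summed to 46.9, 33.6 and 43.7 RPKM in the vector control livers and 60.9, 54.1, 37.8 and 56 RPKM at 3 weeks, and the groups overlapped. Nnmt, which methylates nicotinamide, went from 7.18 ± 3.39 RPKM (SD, n = 3) in controls to 29.4 ± 12.4 RPKM (SD, n = 4) (log2 change 1.99 ± 0.40 (SE), limma, adjusted p = 0.019). The call was lost without control mouse 1 (limma, adjusted p = 0.0568). Car4, a carbonic anhydrase, was 0, 0 and 0.27 RPKM in the vector control livers and 1.06, 2.12, 1.87 and 7.26 RPKM at 3 weeks. Its groups did not overlap, and 3-week mouse 4 was the highest (log2 change 2.35 ± 0.47 (SE), limma, adjusted p = 0.0188). It no longer passed without control mouse 1 or control mouse 3 (limma, adjusted p = 0.0723 and 0.053). Car4 had a control mean of 0.09 RPKM and entered the test through its 3-week values, so the filter favoured this call.

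Of 33 tested interferon-stimulated genes 16 were higher (48.5%), 0 lower and 17 did not pass. Here the median log2 change was 0.52, and 0.26 with centring, where 4 were higher (12.1%) and 0 lower. Between 5 and 15 members passed without centring when 1 mouse was left out, the fewest without control mouse 1 or control mouse 3, and 1 to 3 with centring. Among all genes tested, 14.9% rose and 0.708% fell, and 1.32% and 2.91% did so with centring. Igtp (chromosome 11, 58199556 to 58207591, mm10), an interferon-induced GTPase, was 28.2, 24 and 26 RPKM in the vector control livers and 54.9, 69.7, 50.9 and 75.7 RPKM at 3 weeks. No control reached any 3-week value (log2 change 1.24 ± 0.14 (SE), limma, adjusted p = 0.00549, and 0.97 with centring, limma, adjusted p = 0.0138). After centring it was called in 5 of the 7 fits that left out 1 mouse for Igtp. Of 13 tested chemokines and receptors 4 were higher (30.8%), 0 lower and 9 did not pass (the median log2 change was 0.22, and −0.05 with centring, where 2 were higher (15.4%) and 0 lower). Fits with 1 mouse fewer gave 1 to 4 calls without centring, the fewest without control mouse 1, and 0 to 2 with centring. Cxcl10, which attracts T cells, was 1.23, 1.25 and 1.22 RPKM in the vector control livers and 2.77, 3.39, 3.04 and 5.8 RPKM at 3 weeks. The groups did not overlap (log2 change 1.24 ± 0.21 (SE), limma, adjusted p = 0.0124). This call did not hold without control mouse 1 (limma, adjusted p = 0.0504). Markers of T and NK cells, of which 6 of 20 were tested and Thy1 was the most abundant, summed to 5.39, 5.31 and 4.77 RPKM in the vector control livers and 8.15, 7.74, 11.4 and 6.88 RPKM at 3 weeks. Thy1 itself did not pass (log2 change −0.08, limma, adjusted p = 0.768). Of the 6 tested 1 was higher (16.7%), 0 lower and 5 did not pass, the higher one being Cd4, and with centring none passed. When any 1 mouse was left out, 0 passed. Cd4 had a control mean of 0.35 RPKM, under the filter, and entered the test through its 3-week values. These sums and the macrophage sums were higher in every 3-week liver, and their part in the interferon and chemokine values was not tested. Of 14 tested macrophage markers 3 were higher (21.4%), 0 lower and 11 did not pass. For them the median log2 change was 0.30, and 0.04 with centring, where 0 were higher and 0 lower, and 0 to 5 members passed without centring when 1 mouse was left out, the fewest without control mouse 3 or 3-week mouse 4, and 0 with centring. Cd68 and Lyz2, macrophage genes, went from 4.0 ± 0.972 RPKM and 28.7 ± 4.76 RPKM (SD, n = 3) in controls to 6.94 ± 0.852 RPKM and 53.8 ± 13.4 RPKM (SD, n = 4) (limma, adjusted p = 0.0219 and 0.0232, and 0.0971 and 0.0814 with centring). Of the 7 fits that left out 1 mouse, 3 lost the call of Cd68 and 3 that of Lyz2. B and plasma cell markers, led by Jchain, summed to 1.18, 2.54 and 1.77 RPKM in the vector control livers and 4.73, 2.14, 5.4 and 3.22 RPKM at 3 weeks, and neutrophil markers, led by S100a9, to 8.44, 8.06 and 12.6 RPKM in the vector control livers and 11, 10.4, 12.2 and 3.7 RPKM at 3 weeks. Both sums overlapped between the groups.

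Of 22 tested collagen and matrix genes 3 were higher (13.6%), 0 lower and 19 did not pass, the median log2 change was 0.25, and −0.02 with centring, where 1 was higher (4.55%) and 1 lower (4.55%), and 1 to 5 members passed without centring when 1 mouse was left out, and 0 with centring. Beside this stand 14.9% higher and 0.708% lower of all tested genes, and 1.32% and 2.91% with centring. Col1a1, a chain of type I collagen, was 0.307, 0.38 and 0.611 RPKM in the vector control livers and 1.38, 1.4, 1.45 and 1.17 RPKM at 3 weeks. The groups did not overlap (log2 change 0.998 ± 0.15 (SE), limma, adjusted p = 0.0102, and 0.73 with centring, limma, adjusted p = 0.0411). Pdgfrb, a receptor of stellate cells, was 0.684, 1.01 and 0.692 RPKM in the vector control livers and 2.11, 1.69, 1.84 and 1.83 RPKM at 3 weeks, also without overlap (log2 change 0.88 ± 0.14 (SE), limma, adjusted p = 0.0104). For both, leaving out any 1 of the 7 mice kept the call without centring. With centring the call held in 0 of the 7 such fits for Col1a1 and 1 for Pdgfrb. Col1a1 had a control mean of 0.433 RPKM, under the filter, and entered the test through its 3-week values. Pdgfrb is not in the collagen and matrix list. Both genes are in the list of stellate cell and fibroblast markers. There 3 were higher (23.1%), 0 lower and 10 did not pass of 13 tested, and the median log2 change was 0.15, and −0.12 with centring, where 2 were higher (15.4%) and 1 lower (7.69%). When 1 mouse was left out, 2 to 4 members passed without centring, and 0 to 1 with centring. The lower one was Dcn, the most abundant marker. Among nuclear and small noncoding RNAs 3 were higher (27.3%), 0 lower and 8 did not pass of 11 tested (the median log2 change was 0.28, and 0.01 with centring, where 2 were higher (18.2%) and 0 lower), and 3 to 4 members passed without centring when 1 mouse was left out, and 0 to 2 with centring. Meg3, which entered the test through its 3-week values, is among the higher members of this list. The sum of the list, led by RN45S (the precursor of ribosomal RNA), was 451, 277 and 1979 RPKM in the vector control livers and 371, 520.4, 373 and 509 RPKM at 3 weeks, with control mouse 3 far above the rest. The part of this difference in other values was not tested. Neat1 (chromosome 19, 5824708 to 5845478, mm10), the RNA core of paraspeckles, was 14.5, 18.3 and 17.5 RPKM in the vector control livers and 60.8, 51.7, 35.9 and 37.2 RPKM at 3 weeks. Every 3-week liver exceeded every control (log2 change 1.41 ± 0.19 (SE), limma, adjusted p = 0.00676). Malat1, another nuclear RNA, went from 34.4 ± 5.6 RPKM (SD, n = 3) in controls to 56.4 ± 4.47 RPKM (SD, n = 4) (log2 change 0.72 ± 0.12 (SE), limma, adjusted p = 0.0129, and 0.45 with centring, limma, adjusted p = 0.0725). Of 94 tested noncoding names under 200 bases 19 were called (20.2%, beside 15.6% of all), and 12 with centring (12.8%, beside 4.22%). In the list of replication-dependent histones 9 of 67 names were tested, of which 2 were higher (22.2%), 0 lower and 7 did not pass (the median log2 change was 0.48, and 0.21 with centring, where 1 was higher (11.1%) and 0 lower), and 1 to 3 members passed without centring when 1 mouse was left out, the fewest without control mouse 1, and 0 with centring. Hist2h3c1 was 1.83, 2.54 and 2.34 RPKM in the vector control livers and 4.1, 5.28, 4.93 and 4.1 RPKM at 3 weeks, without overlap (log2 change 0.90 ± 0.14 (SE), limma, adjusted p = 0.0102).

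Of 35 listed cell cycle genes 26 were tested, of which 2 were higher (7.69%), 0 lower and 24 did not pass. The median log2 change was 0.38, and 0.12 with centring, where 0 were higher and 0 lower. Leaving out 1 mouse gave 0 to 5 calls without centring, the fewest without control mouse 1 or control mouse 3, and 0 with centring. Over all tested genes 14.9% were higher and 0.708% lower, and 1.32% and 2.91% with centring. Mki67, a marker of dividing cells, was 0.211, 0.101 and 0.418 RPKM in the vector control livers and 0.421, 0.649, 0.483 and 0.602 RPKM at 3 weeks, under the filter. The lowest value at 3 weeks was just above the highest control, and no test was made. For the synthesis of pyrimidines and purines 5 were higher (21.7%), 1 lower (4.35%) and 17 did not pass of 23 tested, the median log2 change was 0.33, and 0.06 with centring, where 1 was higher (4.35%) and 2 lower (8.7%), and 1 to 5 members passed without centring when 1 mouse was left out, the fewest without control mouse 1 or control mouse 3, and 1 to 2 with centring. Cad, which carries the opening steps of pyrimidine synthesis, was 1.0, 1.79 and 1.15 RPKM in the vector control livers and 3.03, 3.33, 2.9 and 3.21 RPKM at 3 weeks. The groups did not overlap (log2 change 1.02 ± 0.16 (SE), limma, adjusted p = 0.0102, and 0.75 with centring, limma, adjusted p = 0.0364). Centred calls were kept in 1 of the 7 fits that left out 1 mouse for Cad. Paics, an enzyme of purine synthesis, was 108, 103 and 114 RPKM in the vector control livers and 79, 86.2, 79.7 and 81 RPKM at 3 weeks, with every 3-week liver below every control (log2 change −0.41 ± 0.08 (SE), limma, adjusted p = 0.0173, and −0.68 with centring, limma, adjusted p = 0.00596). The threshold was missed without control mouse 1 or control mouse 3 (limma, adjusted p = 0.0679 and 0.0665).

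In MET signalling 2 were higher (8.7%), 0 lower and 21 did not pass of 23 tested. For this list the median log2 change was 0.24, and −0.02 with centring, where 0 were higher and 0 lower, and 0 to 2 members passed without centring when 1 mouse was left out, the fewest without control mouse 1, and 0 with centring. The shares of all tested genes were 14.9% higher and 0.708% lower, and 1.32% and 2.91% with centring. Met itself was 13.3, 11.4 and 15 RPKM in the vector control livers and 13.8, 12.8, 17 and 14.7 RPKM at 3 weeks. The groups overlapped (log2 change 0.14 ± 0.13 (SE), limma, adjusted p = 0.447, and −0.13 with centring). The plasmid is human, and whether its reads were counted under the mouse gene is not given in the sources used here. Ctnnb1, the β-catenin gene, was 71.6, 71.5 and 77 RPKM in the vector control livers and 80.8, 84.5, 81.5 and 85.1 RPKM at 3 weeks. Each 3-week value was above each control, yet it did not pass (log2 change 0.18 ± 0.07 (SE), limma, adjusted p = 0.123, and −0.09 with centring). Of 27 tested genes of the β-catenin complex and adhesion 5 were higher (18.5%), 0 lower and 22 did not pass, the median log2 change was 0.22, and −0.04 with centring, where 0 were higher and 0 lower. In fits lacking 1 mouse, 0 to 6 members passed without centring, the fewest without control mouse 1, and 0 to 2 with centring. Dvl1, a Dishevelled protein, went from 17.9 ± 0.811 RPKM (SD, n = 3) in controls to 25.4 ± 1.64 RPKM (SD, n = 4) (log2 change 0.50 ± 0.09 (SE), limma, adjusted p = 0.0134, and 0.23 with centring, limma, adjusted p = 0.162). The call was lost without control mouse 1 (limma, adjusted p = 0.0615).

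Genes called lower numbered 79 without centring and 324 with it, fewer and more than those called higher. Igfbp2 (chromosome 1, 72824503 to 72852474, mm10), a binding protein of insulin-like growth factors, was 371, 309 and 354 RPKM in the vector control livers and 166, 202, 115 and 131 RPKM at 3 weeks. All 3-week livers were below all controls (log2 change −1.19 ± 0.18 (SE), limma, adjusted p = 0.00954, and −1.46 with centring, limma, adjusted p = 0.00596). Leaving out any 1 of the 7 mice kept the call with and without centring. Prelid2, named for its PRELI domain, was 3.31, 2.89 and 2.02 RPKM in the vector control livers and 0.263, 0.201, 0.939 and 0 RPKM at 3 weeks, and Fam107a was 1.64, 3.27 and 1.1 RPKM in the vector control livers and 0.061, 0.139, 0.378 and 0.285 RPKM at 3 weeks. Both fell without overlap (log2 change −2.02 ± 0.32 (SE), limma, adjusted p = 0.0106 and log2 change −1.73 ± 0.29 (SE), limma, adjusted p = 0.012), and leaving out any 1 of the 7 mice kept both calls without centring. In centred data the call stood in 4 of the 7 such fits for Prelid2 and 6 for Fam107a. Their 3-week means of 0.351 and 0.216 RPKM lay under the filter, so both entered the test through their control values. Angptl4, an inhibitor of lipoprotein lipase, was 141, 121 and 127 RPKM in the vector control livers and 32.9, 109, 56.8 and 35.5 RPKM at 3 weeks. The groups did not overlap, and 3-week mouse 2 lay nearest to the controls (log2 change −1.31 ± 0.36 (SE), limma, adjusted p = 0.0413). The call was lost in 6 of the 7 fits that left out 1 mouse, with limma adjusted p from 0.0569 to 0.123. Rgs16, a regulator of G protein signalling, was 119, 58.2 and 49.4 RPKM in the vector control livers and 27.4, 40.4, 20.9 and 14.4 RPKM at 3 weeks. Its groups did not overlap either (log2 change −1.52 ± 0.37 (SE), limma, adjusted p = 0.0312). It no longer passed in 6 of the 7 fits that left out 1 mouse, with limma adjusted p from 0.0512 to 0.098. Herpud1, a gene of endoplasmic reticulum protein breakdown, was 501, 584 and 455 RPKM in the vector control livers and 288, 374, 302 and 261 RPKM at 3 weeks. Again no values overlapped (log2 change −0.75 ± 0.14 (SE), limma, adjusted p = 0.0149, and −1.02 with centring, limma, adjusted p = 0.00746). It no longer passed without control mouse 1 (limma, adjusted p = 0.0557). Apoa1, the main protein of high-density lipoprotein, was 14606, 13824 and 11123 RPKM in the vector control livers and 9088, 10049.5, 8723 and 9979 RPKM at 3 weeks. It was lower in every 3-week liver (log2 change −0.47 ± 0.13 (SE), limma, adjusted p = 0.0397, and −0.74 with centring, limma, adjusted p = 0.0238). This call did not hold in 6 of the 7 fits that left out 1 mouse, with limma adjusted p from 0.0561 to 0.143. After centring it was called in 2 of the 7 such fits for Apoa1. Ahsg, Gc, Mup3 and Fgb, all secreted by hepatocytes, passed lower with centring (limma, adjusted p = 0.0284, 0.0406, 0.0442 and 0.0406) and not without it (0.0611, 0.125, 0.107 and 0.11). With centring the call held in 2 of the 7 such fits for Ahsg, 2 for Gc, 1 for Mup3 and 1 for Fgb. Mup3 belongs to a family of near-identical copies, so its level is uncertain.

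Lipid genes lay below the median of all genes for 3 of 4 lists. For fatty acid oxidation and ketone bodies 0 were higher, 0 lower and 26 did not pass of 26 tested, and the median log2 change was −0.10, and −0.37 with centring, where 0 were higher and 8 lower (30.8%), and 0 to 2 members passed without centring when 1 mouse was left out, and 0 to 7 with centring. Among all genes tested, 14.9% rose and 0.708% fell, and 1.32% and 2.91% did so with centring. For bile acid synthesis and transport 0 were higher, 2 lower (9.52%) and 19 did not pass of 21, and the median log2 change was −0.15, and −0.42 with centring, where 0 were higher and 7 lower (33.3%), and 0 to 3 members passed without centring when 1 mouse was left out, the fewest without control mouse 1 or control mouse 3, and 0 to 7 with centring. For cholesterol synthesis and uptake 3 were higher (12.5%), 1 lower (4.17%) and 20 did not pass of 24, and the median log2 change was −0.10, and −0.36 with centring, where 1 was higher (4.17%) and 4 lower (16.7%). Fits with 1 mouse fewer gave 1 to 3 calls without centring, the fewest without control mouse 1, control mouse 2 or 3-week mouse 4, and 0 to 3 with centring. The fourth list, fatty acid and triglyceride synthesis, lay above it, where 2 were higher (8.33%), 1 lower (4.17%) and 21 did not pass of 24 and the median log2 change was 0.38, and 0.11 with centring, where 1 was higher (4.17%) and 1 lower (4.17%), and 1 to 6 members passed without centring when 1 mouse was left out, the fewest without control mouse 1 or control mouse 3, and 0 to 6 with centring. Mlxipl, the carbohydrate-responsive factor ChREBP, was 45.7, 49.8 and 43.7 RPKM in the vector control livers and 90.1, 73.4, 79.3 and 100.3 RPKM at 3 weeks, without overlap (log2 change 0.87 ± 0.12 (SE), limma, adjusted p = 0.00686). For it, leaving out any 1 of the 7 mice kept the call without centring. Centred calls were kept in 1 of the 7 such fits for Mlxipl.

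Further lists were counted in the same way. In glycolysis and gluconeogenesis 1 was higher (4.0%), 0 lower and 24 did not pass of 25 tested, and the median log2 change was 0.07, and −0.19 with centring, where 0 were higher and 2 lower (8.0%), and 0 to 2 members passed without centring when 1 mouse was left out, the fewest without control mouse 1 or control mouse 3, and 0 to 4 with centring. Beside this stand 14.9% higher and 0.708% lower of all tested genes, and 1.32% and 2.91% with centring. In amino acid breakdown 3 were higher (10.3%), 2 lower (6.9%) and 24 did not pass of 29, and the median log2 change was 0.06, and −0.21 with centring, where 0 were higher and 3 lower (10.3%). When 1 mouse was left out, 0 to 4 members passed without centring, the fewest without control mouse 1 or 3-week mouse 4, and 0 to 4 with centring. Bhmt, which remethylates homocysteine, was the lower member of smallest adjusted p (log2 change −0.74 ± 0.19 (SE), limma, adjusted p = 0.035). For Bhmt, the threshold was missed in 5 of the 7 fits that left out 1 mouse. In the stress and unfolded protein response 2 were higher (8.33%), 2 lower (8.33%) and 20 did not pass of 24, and the median log2 change was 0.16, and −0.11 with centring, where 0 were higher and 2 lower (8.33%), and 1 to 6 members passed without centring when 1 mouse was left out, the fewest without control mouse 1, and 1 to 3 with centring. Xbp1, a factor of that response, was 132, 152 and 125 RPKM in the vector control livers and 219, 198, 201 and 199 RPKM at 3 weeks, without overlap and opposite in direction to Herpud1 (log2 change 0.58 ± 0.09 (SE), limma, adjusted p = 0.0103, and 0.31 with centring, limma, adjusted p = 0.0885). Among NRF2 targets 4 were higher (23.5%), 0 lower and 13 did not pass of 17, and the median log2 change was 0.20, and −0.07 with centring, where 0 were higher and 2 lower (11.8%), and 0 to 3 members passed without centring when 1 mouse was left out, the fewest without control mouse 1, and 0 to 1 with centring. Abcc4, one of the higher NRF2 targets, entered the test through its 3-week values. Among acute phase genes 3 were higher (12%), 0 lower and 22 did not pass of 25, and the median log2 change was −0.05, and −0.32 with centring, where 0 were higher and 4 lower (16%). Leaving out 1 mouse gave 0 to 7 calls without centring, the fewest without control mouse 1 or control mouse 3, and 0 to 5 with centring. The higher ones were the serum amyloid genes Saa1, Saa2 and Saa3, close copies whose reads are hard to assign. Of the 7 fits that left out 1 mouse, 6 lost the call of Saa1 and 6 that of Saa3. Saa2 was 17.7, 23.1 and 14.9 RPKM in the vector control livers and 35.4, 61.6, 99.5 and 44 RPKM at 3 weeks, without overlap (log2 change 1.58 ± 0.31 (SE), limma, adjusted p = 0.0186). This call did not hold without control mouse 1 or control mouse 3 (limma, adjusted p = 0.0683 and 0.0699). For growth hormone signalling 1 was higher (6.67%), 1 lower (6.67%) and 13 did not pass of 15 (the median log2 change was 0.12, and −0.15 with centring, where 0 were higher and 2 lower (13.3%), and 1 to 2 members passed without centring when 1 mouse was left out, and 1 to 2 with centring), and for the clock 2 were higher (11.8%), 0 lower and 15 did not pass of 17 (the median log2 change was 0.05, and −0.22 with centring, where 0 were higher and 1 lower (5.88%), and 0 to 4 members passed without centring when 1 mouse was left out, the fewest without control mouse 1, control mouse 3 or 3-week mouse 4, and 0 to 1 with centring). Of male-biased genes 1 was higher (5.0%), 0 lower and 19 did not pass of 20, and the median log2 change was 0.03, and −0.24 with centring, where 0 were higher and 2 lower (10%), and 0 to 1 members passed without centring when 1 mouse was left out, and 0 to 3 with centring. Of female-biased genes 5 were higher (33.3%), 3 lower (20%) and 7 did not pass of 15, and the median log2 change was 0.65, and 0.38 with centring, where 3 were higher (20%) and 3 lower (20%), and 3 to 9 members passed without centring when 1 mouse was left out, the fewest without control mouse 1 or control mouse 3, and 1 to 6 with centring. Cyp2b9, a female-biased P450, was 0.433, 0.434 and 0.437 RPKM in the vector control livers and 1.83, 1.37, 2.81 and 1.85 RPKM at 3 weeks, without overlap (log2 change 1.37 ± 0.19 (SE), limma, adjusted p = 0.00749). Its control values lay under the filter, so Cyp2b9 entered the test through its 3-week values. A1bg, also called higher in this list, had a control mean of 0.333 RPKM and entered in the same way. The filter thus favoured the count of higher female-biased genes. For cytosolic ribosomal proteins 5 were higher (7.25%), 0 lower and 64 did not pass of 69, and the median log2 change was 0.07, and −0.19 with centring, where 1 was higher (1.45%) and 2 lower (2.9%). In fits lacking 1 mouse, 1 to 5 members passed without centring, the fewest without control mouse 1, and 0 to 5 with centring. Rpl10 and Rpl3 were listed at only 1.48 to 3.92 and 0.337 to 1.53 RPKM. Genes with near-identical copies are uncertain in this table, and 4 globin genes were listed at 0 while Hbb-bs was 195, 129 and 138 RPKM in the vector control livers and 238, 182, 270.1 and 209.9 RPKM at 3 weeks. Cholangiocyte markers, led by Spp1, had 0 calls in 5 tested and summed to 25.6, 24.5 and 34.9 RPKM in the vector control livers and 34.6, 49.5, 29.5 and 35.3 RPKM at 3 weeks, with overlap.

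**Figure D3:**
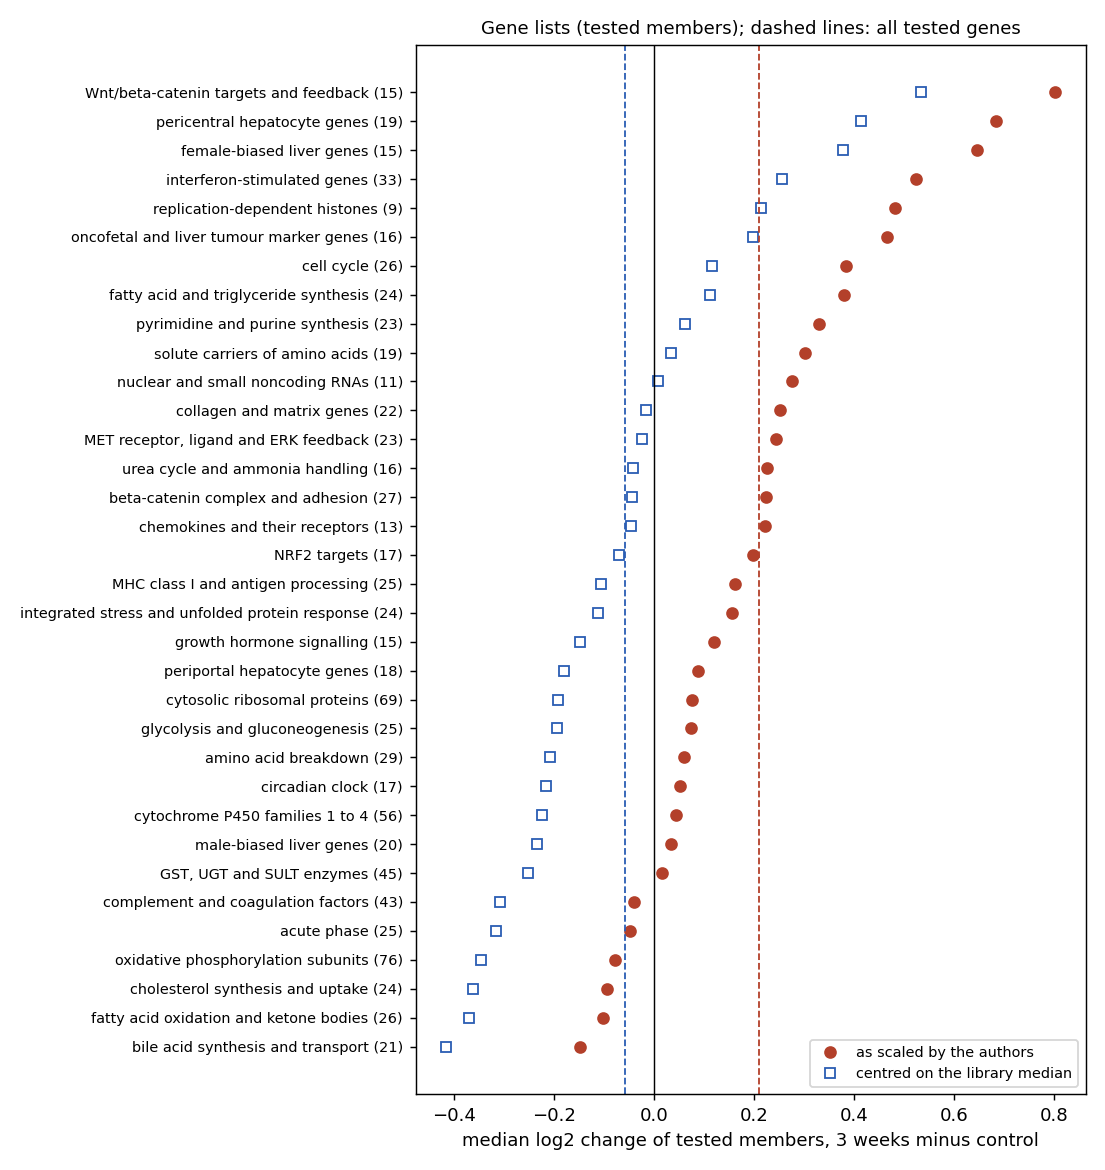
Each row is a gene list with at least 3 tested members (their number in parentheses), and the x axis is the median log2 change of those members at 3 weeks, as scaled by the authors (filled circles) and with centring (open squares). The dashed lines are the medians of all tested genes, 0.21 and −0.06, and Wnt targets lie furthest above them at 0.80 and 0.53.

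Of the cytochrome P450 genes of families 1 to 4, 56 were tested. Of these 5 were higher (8.93%), 5 lower (8.93%) and 46 did not pass. Cyp2b9, which entered the test through its 3-week values, was counted among the higher ones. The median log2 change was 0.04, and −0.22 with centring, where 3 were higher (5.36%) and 7 lower (12.5%). Between 3 and 10 members passed without centring when 1 mouse was left out, the fewest without control mouse 1, and 0 to 10 with centring. Over all tested genes 14.9% were higher and 0.708% lower, and 1.32% and 2.91% with centring. Of 45 conjugating enzymes 4 were higher (8.89%), 0 lower and 41 did not pass, and the median log2 change was 0.01, and −0.25 with centring, where 3 were higher (6.67%) and 1 lower (2.22%), and 3 to 5 members passed without centring when 1 mouse was left out, the fewest without control mouse 1, control mouse 2 or control mouse 3, and 0 to 5 with centring. Gstm3, a glutathione transferase, was 50.3, 49.4 and 47.4 RPKM in the vector control livers and 122.7, 319.9, 154 and 222 RPKM at 3 weeks without overlap (log2 change 1.95 ± 0.28 (SE), limma, adjusted p = 0.00806). Of 76 subunits of oxidative phosphorylation 0 were higher, 1 lower (1.32%) and 75 did not pass, and the median log2 change was −0.08, and −0.35 with centring, where 0 were higher and 11 lower (14.5%). Fits with 1 mouse fewer gave 0 calls without centring, and 0 to 10 with centring. Of 25 genes of MHC class I and antigen processing 4 were higher (16%), 0 lower and 21 did not pass, and the median log2 change was 0.16, and −0.11 with centring, where 0 were higher and 0 lower, and 0 to 4 members passed without centring when 1 mouse was left out, the fewest without control mouse 1, control mouse 3 or 3-week mouse 4, and 0 to 1 with centring. Of 43 complement and coagulation genes 2 were higher (4.65%), 2 lower (4.65%) and 39 did not pass, and the median log2 change was −0.04, and −0.31 with centring, where 0 were higher and 10 lower (23.3%), and 0 to 5 members passed without centring when 1 mouse was left out, the fewest without control mouse 1, control mouse 3 or 3-week mouse 4, and 0 to 11 with centring.

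Against the 2-week livers, 0 genes (0%) passed at 3 weeks (limma, smallest adjusted p = 0.0687), and 1413 had an unadjusted p under 0.05. With centring 0 passed (limma, smallest adjusted p = 0.0534) and 733 had an unadjusted p under 0.05. Missing the threshold does not show that both times were alike. The comparisons of 2 and of 3 weeks with the controls share the 3 control livers, so their values are only set side by side. Nkd1 was 4.69 ± 1.38 RPKM at 2 weeks against 8.05 ± 3.23 RPKM at 3 weeks (SD, n = 4 each). Oat was 426 ± 163 RPKM at 2 weeks against 600.1 ± 134 RPKM at 3 weeks (SD, n = 4 each). Neat1 was 27.1 ± 9.05 RPKM at 2 weeks against 46.4 ± 12 RPKM at 3 weeks (SD, n = 4 each). Pnliprp1 was 0.445 ± 0.465 RPKM and 2.7 ± 1.78 RPKM, Car4 0.123 ± 0.193 RPKM and 3.08 ± 2.82 RPKM, and Prelid2 3.43 ± 1.23 RPKM and 0.351 ± 0.408 RPKM (SD, n = 4 each). None of these passed between the times (limma, adjusted p = 0.36, 0.395, 0.307, 0.26, 0.26 and 0.0687). Of 11153 tested genes, 2-week mice 3 and 4 were both above 2-week mice 1 and 2 in 4242 (38%) and both below in 1652 (14.8%). Of the 1666 called higher at 3 weeks they were both above in 813 (48.8%) and both below in 98 (5.88%). Of the 79 called lower they were both above in 8 (10.1%) and both below in 21 (26.6%). These genes were called without centring. The median log2 value was also higher in 2-week mice 3 and 4 (2.78 and 2.86) than in 2-week mice 1 and 2 (2.66 and 2.65). The part of this difference in the counts was not tested. Genes picked after their values were seen showed either pattern. Malat1 was 31.5 and 31.6 RPKM in 2-week mice 1 and 2 and 72.9 and 69 RPKM in 2-week mice 3 and 4. Meg3 was 0.285 and 0.75 RPKM in 2-week mice 1 and 2 and 3.99 and 3.7 RPKM in 2-week mice 3 and 4. Nkd1 was 3.25 and 3.77 RPKM in 2-week mice 1 and 2 and 5.99 and 5.73 RPKM in 2-week mice 3 and 4. These did not overlap between the pairs of mice, and neither did Neat1. Oat was 200.02 and 467 RPKM in 2-week mice 1 and 2 and 589 and 447 RPKM in 2-week mice 3 and 4. Rnf43 was 7.31 and 7.52 RPKM in 2-week mice 1 and 2 and 3.05 and 12.1 RPKM in 2-week mice 3 and 4. Both of these overlapped. The fit of 3 against 2 weeks did not take the library name digits into account.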

How the data were processed

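The authors mapped reads to mm10 with HISAT2, counted them with featureCounts and deposited RPKM, which scale reads to gene length and to a read total whose definition is not given in the sources used here. The labels name an rRNA depletion kit and the methods a stranded mRNA kit. Of 23420 names, 27 consisting of digits alone were dropped. Read totals inferred from low RPKM values of single-exon genes were 17030000 to 22090000 in the controls and 17620000 to 20910000 at 3 weeks, with 93.3% to 100% of those values within 0.04 of a whole read (8% by chance). There, 3 reads on 2000 bases are 0.0679 to 0.0881 RPKM, which covers counting error only.

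Values were taken as log2(RPKM + 0.5) and fitted with limma 3.58.1 (R 4.3.3, intensity trend, two-sided, Benjamini-Hochberg over all tested genes, called at adjusted p under 0.05) for genes with a mean of at least 0.5 RPKM over the 7 livers, without and with centring each library on its median. The changes of low genes are understated on this scale. The fit was also run on simulated data (11153 genes, 200 of them changed up or down, independent noise, no shift of library medians). It recovered 0% of the changed genes at a log2 change of 0.5, 75% at 1 and 97.5% at 2, with 0, 8 and 15 false calls. In the real data 15.6% of genes were called, library medians differed, and genes called higher had a median log2 change of 0.54. The simulated shares and false calls therefore do not describe this comparison. Genes that did not pass may have changed. Tables were made with Python 3.11.15, numpy 2.4.6 and pandas 2.3.3. The comparison with 2 weeks used all 11 libraries in 1 fit.

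Named genes were the 15 largest rises and falls called under both scalings without overlap and with at least 1 RPKM in the higher group, the 5 most abundant called genes each way with centring, up to 4 called members of each list (2 most abundant where none passed), and 12 fixed genes. Some genes that met it are not reported here, but stay in the fits and counts. Genes added outside this rule are said to be so. Noncoding names under 200 bases were only counted. Gene positions are those of GENCODE vM21 (mm10), and promoter sequences those of RefSeq. Members and lists were chosen with earlier results of these data known. Alternatives were other pseudocounts, filters and scalings, the variance prior, array weights, all groups in 1 fit, a replicate block and leaving out each mouse.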

Additional observations from a re-analysis of the deposited data

Results flagged for a closer look

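Of 140 named genes examined, 8 had 1 liver at 3 weeks far from the other 3, where chance gives about 1 in 20, or 7.0. Cyp2c40 was 20.5 RPKM in 3-week mouse 1 and 1.9 to 5.06 RPKM in the other 3. Cyp2b10 was 1.21 RPKM in 3-week mouse 3 and 0.233 to 0.356 RPKM in the other 3. Cyp39a1 was 6.3 RPKM in 3-week mouse 2 and 2.14 to 2.32 RPKM in the other 3. Fgb was 3546 RPKM in 3-week mouse 2 and 2373 to 2500.4 RPKM in the other 3. Cd4 was 0.97 RPKM in 3-week mouse 3 and 0.647 to 0.673 RPKM in the other 3. Ddx3y was 14.4 RPKM in 3-week mouse 1 and 18.5 to 19.2 RPKM in the other 3. Xbp1 was 219 RPKM in 3-week mouse 1 and 198 to 201 RPKM in the other 3. Rpl17 was 2.25 RPKM in 3-week mouse 4 and 1.9 to 1.94 RPKM in the other 3.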

How the results depend on the processing

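The count of 1745 (1666 higher, 79 lower) became 471 (147 higher, 324 lower) with centring, 1760 (1681 higher, 79 lower) with a pseudocount of 0.1, 1708 (1628 higher, 80 lower) with a pseudocount of 1, 1043 (1002 higher, 41 lower) with no filter, 1478 (1407 higher, 71 lower) with a minimum mean of 2 RPKM, 2777 (2702 higher, 75 lower) with equal sums, 137 (91 higher, 46 lower) with quantile normalization, 1757 (1696 higher, 61 lower) with no intensity trend, 2822 (2659 higher, 163 lower) with array weights, 946 (906 higher, 40 lower) with all 3 groups in 1 fit, 155 (139 higher, 16 lower) with a change of at least 2-fold required. Leaving out each mouse gave 258 to 1719 in all, 247 to 1649 higher and 11 to 101 lower. With centring, as alternatives chosen after seeing the data, leaving out each mouse gave 40 to 495 in all, 24 to 158 higher and 16 to 337 lower. The cause of these moves was not tested. With the replicate number as a block the count was 122 (120 higher, 2 lower), and 9 (9 higher, 0 lower) with centring. As 3-week mouse 4 has no control of its number, its values do not enter that estimate, and leaving it out alone gave 535 (515 higher, 20 lower), and 75 with centring. Livers sharing a number correlated at 0.0141 to 0.0313 in their deviations. Control mice 2 and 3 correlated best with the 3-week mouse of their own number. Control mouse 1 correlated best with 3-week mouse 4 (0.033, beside 0.0246 with 3-week mouse 1). As these correlations were weak, the numbers were not taken as pairs. Over 138 named genes and 18 alternatives, 1794 values kept direction and side of the threshold, 629 lost the call, 15 gained it and 21 changed sign, all for genes without a call. These log2 changes were S100a9 (−0.403) 0.0383 with the block (the same value as without 3-week mouse 4) and −0.605 to 0.0383 leaving out each mouse, S100a8 (−0.118) 0.186 with the block (the same value as without 3-week mouse 4) and −0.393 to 0.327 leaving out each mouse, Alas2 (−0.00272) 0.0468 with equal sums, 0.000679 with quantile normalization, 0.0843 with array weights and −0.107 to 0.09999 leaving out each mouse, Eif2s3y (0.0476) −0.221 with centring, −0.081 with quantile normalization and −0.00677 to 0.105 leaving out each mouse, Ddx3y (0.152) −0.116 with centring and −0.0267 with quantile normalization, Met (0.137) −0.131 with centring and −0.044 with quantile normalization, Ctnnb1 (0.177) −0.0916 with centring, Cps1 (0.236) −0.0323 with centring, Asl (0.241) −0.0275 with centring. Read depth limits genes near the level of 3 reads.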
